A study of Gallus gallus with 6 samples.

Results

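The genes described here act in the entry into mitosis, in or on the spindle checkpoint, or on the chromosomes of dividing cells. They are 10 genes chosen by name (CDK1, CCNA2, CCNB2, CCNB3, PLK1, AURKA, BUB1, MKI67, TOP2A and CDC20), and all 10 were found by symbol among the 23724 genes of the table. Expression was measured by bulk RNA-seq in the papilla ectoderm, the epidermal sheet around the dermal papilla at the base of the feather follicle. The birds were White Leghorn chickens without treatment, and the follicles regenerated contour feathers after plucking. The early growth phase was taken at 3 weeks of regeneration, the late growth phase at 7 weeks and the resting phase at 10 weeks, with 2 libraries per phase. The sources used here do not say whether the 2 libraries of a phase came from different birds, so a p value measures only the spread between libraries.

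Cyclin-dependent kinase 1, bound first to cyclin A and then to B-type cyclins, triggers the entry into mitosis. Aurora A and Polo-like kinase 1 help to activate it and build the spindle poles. While a kinetochore remains unattached, the spindle checkpoint holds back CDC20, which would otherwise switch on the anaphase-promoting complex, a ubiquitin ligase that marks cyclin B and securin for destruction. The transcripts of these genes rise together as a cell nears mitosis and are low in resting cells. In feathers the dividing cells lie in the collar epidermis, and the resting follicle keeps its epidermal stem cells in the papilla ectoderm.

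Levels are given as TPM, the abundance of a gene's transcripts scaled for their length and for the total of the library. The 13063 genes with a mean above 1 TPM, all 10 mitotic genes among them, were compared on the log2(TPM + 1) scale. limma was fitted to all 6 libraries, with Benjamini-Hochberg adjustment over the 13063 genes. A gene is said to fall or rise at an adjusted p under 0.05. Adding 1 TPM makes the change of a gene that ends near 0 look smaller than it is, so the ratio of TPM is given as well. The depth behind each value is unknown. An exact permutation test of 2 libraries against 2 cannot go below p = 0.333, so every call rests on the spread that limma shares among genes.

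The libraries held other cells beside keratinocytes. A list of 10 keratinocyte markers took 0.949 to 1.30% of TPM in every library, and none of the 10 was listed at 0. Without KRT15, 1 of the 10, the share was 1.16 and 1.25% early in growth and 0.789 and 0.800% at rest. Smooth muscle markers stood at 4.26 and 4.38% at rest, against at most 0.215% early and 0.00734% late in growth. Erythroid markers stood at 5.58 and 5.61% at rest, against 0.148% or less in the growth phases. Fibroblast markers took 0.160 to 0.173% in the early growth and resting libraries and 0.0263 and 0.0275% in those of late growth. Early growth replicate 2 listed 814 tested genes at 0, against 124 in replicate 1 and 405 to 577 in the other libraries. In bulk samples, fewer cells of a type and less RNA per cell cannot be told apart.

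All 10 mitotic genes were high in both growth phases and far lower in the resting phase. Summed over the 10, the early growth libraries held 1622 and 1638 TPM, those of late growth 1028 and 1077 TPM, and those of rest 39.9 and 36.6 TPM. From late growth to resting all 10 fell, where 23.1% of all tested genes were lower, and from early growth to resting all 10 fell, where 34% were lower. The fall from early to late growth was smaller and passed the test for 5 of 10 (CCNB2, TOP2A, PLK1, BUB1 and AURKA), where 28.4% of tested genes were lower. None of the 10 rose at any step. CDK1 was picked out by the study as an example of declining expression in these libraries, so its own p values are not independent evidence of that direction.

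**Figure D1:**
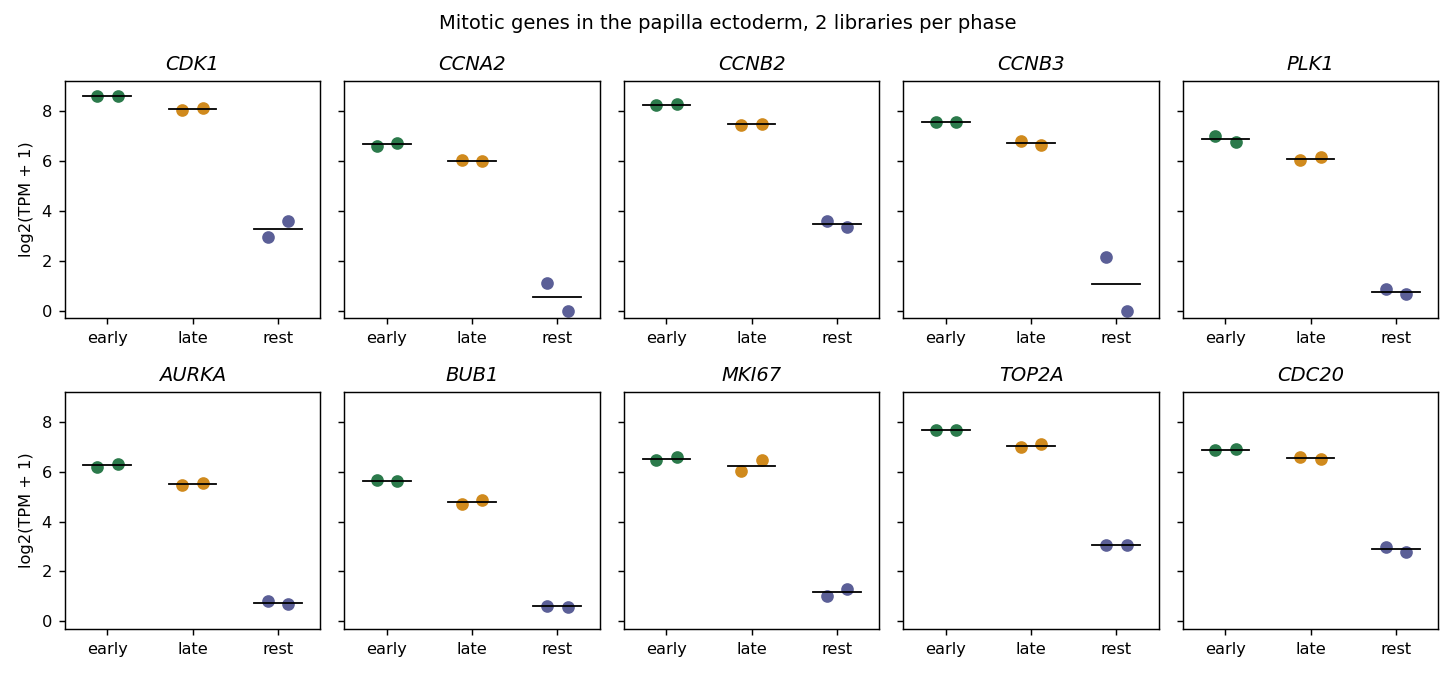
Level of each of the 10 mitotic genes on the log2(TPM + 1) scale (vertical axis) by phase (horizontal axis: early growth, late growth, rest). Each point is 1 library, 2 per phase, and the line is their mean; the resting points lie far below the growth points in all 10 panels, and CCNA2 and CCNB3 have 1 resting library at 0.

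The mitotic kinase CDK1 was the most abundant of the 10 in both growth phases. Its early growth libraries held 387.7 and 385.9 TPM, its late growth libraries 260.5 and 280.9 TPM, and its resting libraries 6.83 and 11.1 TPM. The phases did not overlap, and the 2 resting libraries were further apart, in proportion, than those of either growth phase. Into rest CDK1 changed by −4.80 on the log2 scale (standard error 0.20, adjusted p = 2.0e-05), a 30.1-fold lower mean TPM. From early to late growth it was −0.51 (adjusted p = 0.099), which did not pass. Within early growth, CDK1 ranked 335 of 23724 genes by mean TPM, and within the resting phase 8887.

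The cyclins that activate CDK1 followed it. CCNA2, the A-type cyclin of S phase and of the approach to mitosis, stood at 97.2 and 104.9 TPM early and 65.0 and 62.5 TPM late in growth. At rest 1 library held 1.15 TPM and the other listed the gene at 0. Its phases did not overlap, and the change into rest was −5.46 on the log2 scale (standard error 0.35, adjusted p = 9.6e-05).

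CCNB2, a B-type cyclin, was the second most abundant of the 10 genes in both growth phases. It went from 298 and 308.0 TPM through 174 and 177 TPM to 11.01 and 9.19 TPM at rest, without overlap between phases. The RefSeq gene table lists CCNB2 as a synonym of the chicken gene it calls CCNB1, so the symbol may not stand for the mammalian CCNB2. CCNB2 fell at both steps, with log2 fold changes of −0.783 (standard error 0.11, adjusted p = 0.0039) and −3.9985 (adjusted p = 5.4e-06). CCNB2 passed the first step in all 16 alternatives that gave it a value, with adjusted p from 0.0030 to 0.046.

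CCNB3, the third B-type cyclin of vertebrates, stood at 186 and 189 TPM, then at 112 and 99.8 TPM, and at rest at 3.44 TPM in 1 library while listed at 0 in the other. Its phases did not overlap, but its 2 resting libraries were the most discordant pair of the 10 genes on the log2 scale. The change into rest was −5.66 (standard error 0.63, adjusted p = 7.9e-04). The change from early to late growth was −0.82 (adjusted p = 0.36). In a fit to the 4 growth libraries alone, which leaves the discordant resting pair out of the spread, that adjusted p was 0.013.

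PLK1, the Polo-like kinase that acts at spindle poles, kinetochores and the midbody, held 127 and 107.0 TPM early and 63.8 and 70.3 TPM late in growth. The resting libraries held 0.815 and 0.595 TPM. PLK1 changed by −0.79 (standard error 0.16, adjusted p = 0.015) between the growth phases and by −5.32 into rest (adjusted p = 8.4e-06), a 95.1-fold lower mean TPM. AURKA, the spindle pole kinase Aurora A, was at 71.3 and 79.0 TPM, then 43.0 and 46.2 TPM, then 0.741 and 0.608 TPM. Both steps passed, with −0.74 (standard error 0.16, adjusted p = 0.017) and −4.77 (adjusted p = 1.1e-05), and the phases did not overlap for either kinase.

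Of the genes that act in or on the spindle checkpoint, BUB1 was the least abundant of the 10 in both growth phases and CDC20 had the smallest change into rest. BUB1, the checkpoint kinase of the kinetochore, went from 49.6 and 47.7 TPM through 25.2 and 28.2 TPM to 0.535 and 0.497 TPM, without overlap. Its first step, −0.85 on the log2 scale (standard error 0.18, adjusted p = 0.016), was the largest of the 10. Into rest it changed by −4.19 (adjusted p = 2.2e-05). CDC20, the co-activator of the anaphase-promoting complex, was at 116.6 and 117.3 TPM, then 94.7 and 90.6 TPM, then 6.99 and 5.80 TPM. Its phases did not overlap. Its change into rest of −3.67 (standard error 0.12, adjusted p = 1.1e-05) was smaller than that of the other 9, and its change of −0.33 between the growth phases did not pass (adjusted p = 0.089).

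TOP2A and MKI67 act on the chromosomes themselves. TOP2A, the topoisomerase that untangles sister chromatids, held 201 and 204 TPM, then 126 and 135 TPM, then 7.42 and 7.29 TPM. Both steps passed, with −0.63 (standard error 0.10, adjusted p = 0.0056) and −3.98 (adjusted p = 4.2e-06). MKI67, whose protein Ki-67 coats mitotic chromosomes and is used as a stain for cycling cells, held 87.1 and 95.1 TPM early and 63.2 and 86.2 TPM late in growth. The higher late growth library came within 1 TPM of the lower early growth library, and the late growth pair of MKI67 was the most discordant of the 10. The change of −0.30 between the growth phases (adjusted p = 0.31) did not pass under any alternative. At rest MKI67 stood at 1.022 and 1.49 TPM, a change of −5.06 (standard error 0.20, adjusted p = 1.8e-05).

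The shares that were left separate the 2 steps. In late growth the 10 genes stood at 54.8% (BUB1) to 82.0% (MKI67) of their mean TPM in early growth. At rest the 8 genes without a value of 0 stood at 0.603% (PLK1) to 5.47% (CDC20) of early growth, and at 1.05 to 6.90% of late growth. CDC20, TOP2A, CCNB2 and CDK1 kept 2.32 to 5.47% of the early growth level at rest. MKI67, BUB1, AURKA and PLK1 kept 0.603 to 1.38%. This grouping was made after the values were seen and was not tested.

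**Figure D2:**
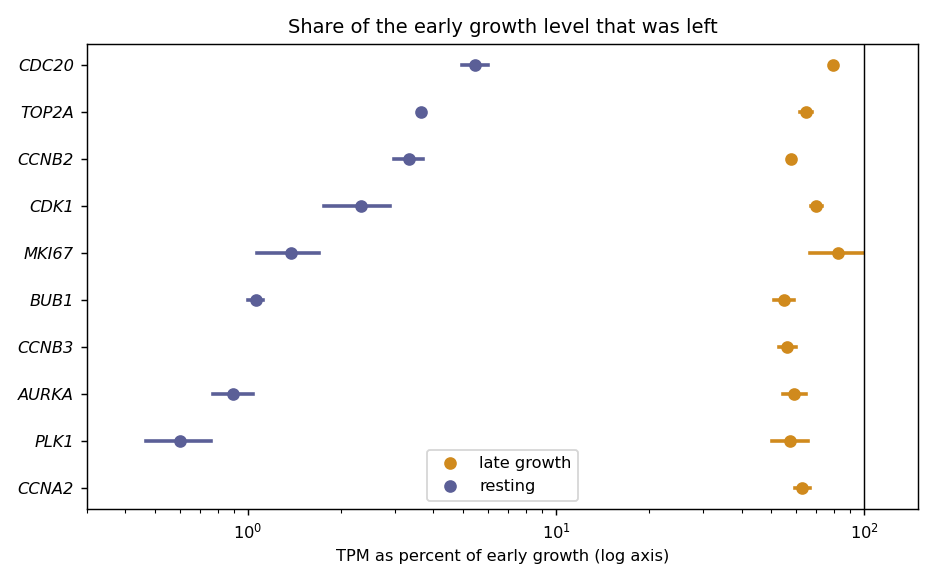
Mean TPM of each gene in the late growth and resting phases as a percentage of its early growth mean (horizontal log axis), with genes on the vertical axis. Lines span the 4 pairs of libraries, and no resting share is drawn for CCNA2 and CCNB3, which had 1 resting library at 0; late growth shares lie between 54.8 and 82.0%, resting shares between 0.603 and 5.47%.

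Ratios of 2 genes within a library do not depend on how the library was scaled. The ratio of CDC20 to PLK1 was 0.918 and 1.10 in the early, 1.49 and 1.29 in the late and 8.58 and 9.76 in the resting libraries. TOP2A to AURKA went from 2.81 and 2.58 through 2.94 and 2.93 to 10.02 and 11.997 at rest. The ratio of CDC20 to BUB1 also went up, from 2.35 and 2.46 through 3.76 and 3.22 to 13.1 and 11.7. By contrast, PLK1 to AURKA was 1.78 and 1.35, then 1.48 and 1.52, then 1.10 and 0.979. MKI67 to BUB1 was 1.75 and 1.99, then 2.51 and 3.06, then 1.91 and 2.99, and its growth and resting values overlapped. At rest PLK1, AURKA and BUB1 were below 1 TPM, where a value rests on few reads, and these pairs were chosen after the values were seen.

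By level, the order in early growth was CDK1, CCNB2, TOP2A, CCNB3, PLK1, CDC20, CCNA2, MKI67, AURKA and BUB1. Only the neighbours PLK1 and CDC20 overlapped there. In late growth CDC20 and MKI67 stood above PLK1, and MKI67, PLK1 and CCNA2 overlapped with their neighbours in the order. The order at rest was CCNB2, CDK1, TOP2A, CDC20, CCNB3, MKI67, PLK1, AURKA, CCNA2 and BUB1. There CDK1 overlapped with CCNB2, TOP2A and CDC20, while CCNB2 and TOP2A lay apart. CCNB3, with 1 library at 0, overlapped with all genes below it in the order. CCNA2, also with 1 library at 0, overlapped with MKI67, PLK1, AURKA and BUB1. PLK1 and AURKA overlapped with each other.

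How firm the step from early to late growth is depends on the scaling. The median log2 fold change was −0.70 for the 10 genes and −0.31 for all tested genes. With median-of-ratios scaling, which moves the median of all genes to −0.01, the median of the 10 was −0.36, and 1 of 10 passed (CCNB2), where 15.1% of all genes were lower. With quantile normalization, which moves it to 0.04, the 10 had a median of −0.42, and CCNB2 and TOP2A passed, where 13.6% of all genes were lower. MKI67 and CDC20 changed sign with median-of-ratios scaling, to 0.04 and 0.0077. In the fit to the growth libraries alone 9 of 10 passed, all but MKI67, where 22.3% of all genes were lower. Without late growth replicate 1 only CCNB2 passed, and without late growth replicate 2 CCNB2 and TOP2A, where 11.5% and 12.1% of all genes were lower. Under both scalings and without either late growth library, the share of the 10 that passed was thus near that of all genes. All 10 genes had both late growth libraries below both early growth libraries, which held for 52% of tested genes.

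The fall into rest did not depend on these choices. All 10 genes were lower under every alternative, and the highest adjusted p of any of them was 0.020 (CCNB3). All 10 had both resting libraries below both libraries of late growth and of early growth, which held for 38.7% and 48.1% of tested genes. The median of the 10 was −4.78, that of all tested genes 0.02. With log2 fold changes above 2 in size and an adjusted p under 0.01, the thresholds in the study's methods, 10 of 10 passed from late growth to resting and 10 of 10 from early growth to resting, where 3.66% and 5.27% of tested genes were lower. At the first step none of the 10 met these thresholds, as against 3.97% of tested genes.

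**Figure D3:**
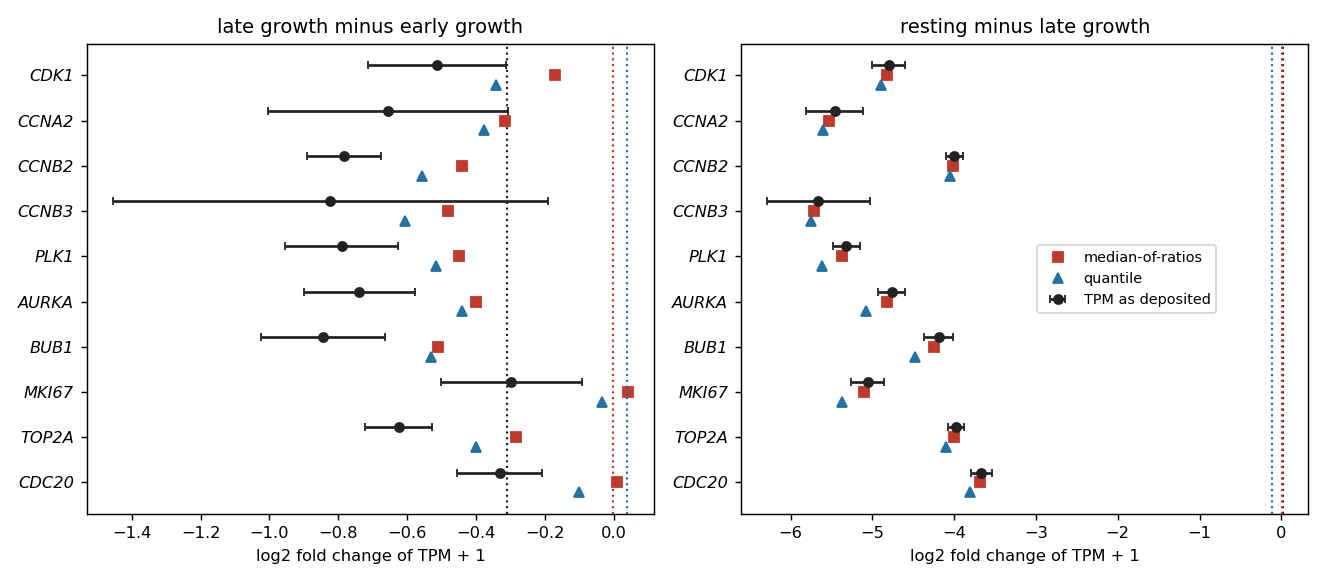
Log2 fold change of TPM + 1 (horizontal axis) for each of the 10 genes from early to late growth (left) and from late growth to resting (right), with TPM as deposited (black, bars are standard errors), median-of-ratios scaling (red squares) and quantile normalization (blue triangles). Dotted lines are the median of all tested genes under each scaling; on the left the genes move toward 0 with either scaling, and MKI67 and CDC20 pass 0 with median-of-ratios scaling, while on the right all lie below −3.

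Smooth muscle and erythroid markers were high in the resting libraries, where the mitotic genes were low, and TPM is a share of all transcripts. With TPM rescaled after the erythroid and smooth muscle markers were removed, the median change of the 10 genes into rest was −4.69 instead of −4.78. Only the listed markers were removed, so other transcripts of these cells stayed in the total. The removed markers took 4.26 and 4.38% (smooth muscle) and 5.58 and 5.61% (erythroid) of resting TPM, so the rescaling could move values only slightly. Measured against the epidermal markers of the same library, the summed mitotic genes amounted to 13.5 and 12.6% of the 10 keratinocyte markers early in growth, to 10.8 and 10.99% late in growth and to 0.426 and 0.386% at rest. The keratinocyte list itself did not keep its makeup: 7 of its 10 genes fell into rest and 2 rose, KRT15 among them. Without KRT15 the ratios at rest were 0.511 and 0.462%. Endothelial markers took 0.0207 and 0.0181% of TPM early and 0.00145 and 0.00197% late in growth, and leukocyte markers 0.0415 and 0.0374% against 0.00536 and 0.00564%. The part of these other cells in the lower level of mitotic genes in late growth was not tested.

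**Figure D4:**
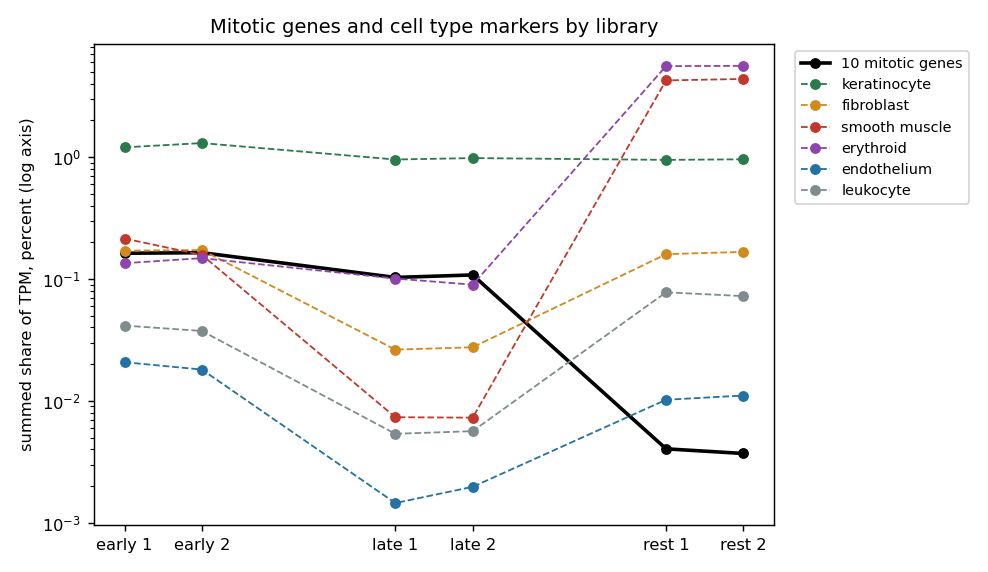
Summed share of TPM in percent (vertical log axis) of the 10 mitotic genes and of 6 lists of cell type markers in each of the 6 libraries (horizontal axis). The mitotic genes go from 0.163 and 0.164% in early growth to 0.00404 and 0.00370% at rest, whereas the keratinocyte markers stay between 0.949 and 1.30% and the erythroid and smooth muscle markers lie at 4.26% or more at rest.

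The wider mitotic machinery was followed in 6 lists with 121 tested genes. From late growth to resting 95 of 121 fell and 1 rose, with a median of −2.50 (all tested genes, 23.1% lower and 24.7% higher). From early to late growth 46 fell and 0 rose, with a median of −0.51 (28.4% lower and 5.24% higher). With median-of-ratios scaling and quantile normalization 95 and 97 were lower into rest, while between the growth phases the count became 14 lower and 5 higher (all genes, 15.1% lower), and 16 lower and 4 higher (13.6%). It was 14 lower without the filter on low values (10.1%), and 8 lower without late growth replicate 1 (11.5%) or 2 (12.1%). Except without the filter, these counts are at or below the share of all genes, so in these settings the wider mitotic lists were not called lower between the growth phases more often than genes at large. Between early growth and rest 105 fell and 1 rose, with a median of −2.99 (34% lower and 15.8% higher).

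Among 13 tested regulators of mitotic entry, 12 fell into rest and 0 rose (all genes, 23.1% lower and 24.7% higher). NEK2, a kinase of the centrosome, changed by −4.09 (adjusted p = 1.3e-04). PLK4, the kinase that starts centriole duplication, changed by −3.88 (adjusted p = 1.6e-04), and CKS1B, a small partner of cyclin-dependent kinases, by −3.77 (adjusted p = 1.5e-05). CKS2, its relative, held 42.2 and 44.7 TPM early and 29.9 and 21.5 TPM late in growth, and was listed at 0 in both resting libraries. WEE1, the kinase that inhibits CDK1, was the gene of this list that did not pass, at 34.4 and 38.1 TPM in late growth and 27.2 and 24.7 TPM at rest. At the first step 5 of 13 were lower, where 28.4% of all genes were, with CCNF, an F-box cyclin (−0.94, adjusted p = 0.025), TPX2, an activator of Aurora A (−0.85, adjusted p = 0.018), and MYBL2, a transcription factor of late cell cycle genes (−0.68, adjusted p = 0.019), as the largest changes without a value of 0. All 5 calls were lost with median-of-ratios scaling, with quantile normalization, without the filter and without either late growth library (0 of 13 each). GTSE1 changed by −4.24 between early growth and rest (adjusted p = 6.7e-04).

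Of 10 tested spindle checkpoint genes 8 fell into rest (23.1% of all genes) and 6 between the growth phases (28.4%), and 0 rose at either step. At the first step 0 of 10 passed with median-of-ratios scaling, with quantile normalization, without the filter and without either late growth library. BUB1B, the BubR1 subunit of the checkpoint complex, fell from 47.7 and 60.4 TPM in late growth to 1.012 and 0.701 TPM at rest (−4.89, adjusted p = 1.6e-05). KNTC1, a kinetochore protein that recruits dynein, changed by −3.12 (adjusted p = 2.7e-04), and TTK, the kinase at the top of the checkpoint, by −3.01 (adjusted p = 8.6e-05). BUB3, the partner of BUB1 and BUB1B, kept 44.3% of its late growth level, at 67.7 and 73.6 TPM at rest. MAD1L1 was at 26.1 and 23.6 TPM in late growth and 18.9 and 20.0 TPM at rest, a difference that did not pass (adjusted p = 0.12). TRIP13, the ATPase that takes checkpoint complexes apart, had the largest change of the list between the growth phases (−1.12, adjusted p = 0.020).

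The core of the anaphase-promoting complex changed less from late growth to resting than the 10 mitotic genes did. For 14 core subunits the log2 fold change into rest ran from −1.06 (CDC16) to 0.11 (CDC23). Of these, 5 of 14 fell, where 23.1% of all genes did. From early growth to resting 10 of 14 fell, where 34% of all genes did, with changes from −1.43 (ANAPC4) to −0.02 (CDC26). FZR1, the co-activator that takes over from CDC20 in late mitosis and G1, was at 33.4 and 40.4 TPM in late growth and 23.6 and 24.0 TPM at rest (−0.61, adjusted p = 0.012). UBE2C, the ubiquitin-conjugating enzyme of the complex, fell from 124 and 108 TPM to 3.27 and 3.92 TPM (−4.67, adjusted p = 5.6e-06). PTTG1, or securin, changed by −3.48 (adjusted p = 8.7e-06) and UBE2S by −1.25 (adjusted p = 8.8e-04). FBXO5, known from mammals as the inhibitor EMI1, stood at 18.4 and 19.3 TPM, then 16.8 and 17.6 TPM, then 18.1 and 17.9 TPM. Its change into rest of 0.06 did not pass (adjusted p = 0.75). From early to late growth 7 of 19 genes of this list fell, where 28.4% of all genes did, with ANAPC10 (−0.96, adjusted p = 0.048), CDC23 (−0.88, adjusted p = 0.0034) and UBE2C (−0.75, adjusted p = 0.00835) as the largest changes without a value of 0. That count was 1 with median-of-ratios scaling (15.1% of all genes), 2 with quantile normalization (13.6%) and 2 without the filter (10.1%). Without late growth replicate 1 or 2 the median of the list was −0.24 or −0.31, and that of all tested genes −0.28 or −0.34. With all libraries these medians were −0.35 and −0.31. In these 2 settings the list thus did not fall by more than genes at large.

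Most kinetochore genes fell into rest and 1 rose. Of 34 tested genes of the kinetochore and the chromosomal passenger complex 29 fell (all genes, 23.1% lower and 24.7% higher). Among the 29 were INCENP, the scaffold of the passenger complex (−4.21, adjusted p = 6.5e-05), KNL1, which recruits BUB1 (−4.04, adjusted p = 2.8e-04), and CENPK (−3.97, adjusted p = 1.4e-05). SGO2, a shugoshin, rose. It held 12.1 and 10.9 TPM, then 2.22 and 1.72 TPM, then 13.5 and 12.8 TPM. SGO2 was lowest in late growth, with −2.08 (adjusted p = 0.0018) and then 2.26 (adjusted p = 4.8e-04), and passed both steps in all 16 alternatives. MIS12 (−1.27, adjusted p = 0.012) and CENPT (−0.98, adjusted p = 0.0080), which link the centromere to microtubule-binding proteins, were next in size between the growth phases among called genes without a value of 0. There 9 of 34 fell, close to the 28.4% of all genes. With median-of-ratios scaling (15.1% of all genes lower) and with quantile normalization (13.6%), 5 of 34 fell and 1 rose. Without the filter on low values 4 of 34 fell, where 10.1% of all genes did.

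In the list of condensins and cohesins 13 of 20 fell into rest and 0 rose (all genes, 23.1% lower and 24.7% higher). SMC2, the core subunit shared by both condensins, went from 227 and 256 TPM in late growth to 2.72 and 4.601 TPM (−5.73, adjusted p = 1.2e-05), a larger fall on this scale than any of the 10 mitotic genes had. NCAPH (−3.81, adjusted p = 1.8e-04) and NCAPG2 (−3.66, adjusted p = 1.7e-04) are condensin subunits as well. Cohesin also serves cells that do not divide. Of its genes, RAD21 was at 180 and 194 TPM in late growth and 99.0 and 107 TPM at rest (−0.86, adjusted p = 0.0011), and STAG2 at 50.5 and 58.5 TPM and 38.7 and 45.0 TPM (adjusted p = 0.080). STAG1 was 0.67 higher at rest than in early growth (adjusted p = 0.025), a call lost without early growth replicate 2 (0.053) and without resting replicate 1 or 2 (0.13 and 0.075). At the first step 6 of 20 fell, close to the 28.4% of all genes, NCAPH (−1.22, adjusted p = 0.023), NCAPH2 (−1.08, adjusted p = 0.0049) and separase, ESPL1 (−1.06, adjusted p = 0.015), by the most. With median-of-ratios scaling 2 fell and 4 rose, where 15.1% of all genes fell and 1728 of 13063 rose. With quantile normalization 2 fell and 3 rose, where 13.6% of all genes fell and 1611 of 13063 rose. Without the filter on low values 2 of 20 fell, where 10.1% of all genes did.

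Of 25 tested spindle and cytokinesis genes 24 fell into rest and 0 rose (all genes, 23.1% lower and 24.7% higher). NUSAP1 (−4.89, adjusted p = 2.0e-05), CKAP2 (−4.51, adjusted p = 2.3e-05) and HMMR (−4.39, adjusted p = 1.0e-04), all proteins of spindle microtubules, had the largest falls without a value of 0. RACGAP1, which with KIF23 forms centralspindlin in the midzone of dividing cells, was at 52.1 and 53.2 TPM in late growth and listed at 0 in both resting libraries. TUBG1, the gamma-tubulin of centrosomes, was the gene that did not pass, at 82.2 and 79.5 TPM and then 67.3 and 72.0 TPM (adjusted p = 0.10). From early to late growth 13 of 25 were lower, where 28.4% of all genes were. The count was 6 with median-of-ratios scaling (15.1% of all genes), 7 with quantile normalization (13.6%) and 6 without the filter (10.1%). Without late growth replicate 1 or 2 the median of the list was −0.61 or −0.74, and that of all tested genes −0.28 or −0.34. With all libraries these medians were −0.66 and −0.31. A fit with 1 late growth library has no spread within that phase, so these medians do not show that the calls hold. KIFC1, a minus-end motor, fell from 156 and 159 TPM to 42.6 and 38.7 TPM (−1.93, adjusted p = 3.9e-04), SPAG5 changed by −1.41 (adjusted p = 0.0027) and KIF23 by −1.19 (adjusted p = 0.0045). KIF4A changed by −5.41 between early growth and rest (adjusted p = 1.1e-04).

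Genes of DNA replication and of the G1 phase were taken as neighbours of mitosis in the cycle. All 31 tested replication genes fell into rest, with a median of −2.71, where 23.1% of all genes fell. Between the growth phases 10 of 31 fell, with a median of −0.46, close to the 28.4% of all genes. With median-of-ratios scaling 2 fell and 2 rose at that first step (15.1% of all genes lower). With quantile normalization 4 fell and 1 rose (13.6% lower), and without the filter 5 fell (10.1% lower). RRM2, a ribonucleotide reductase subunit made in S phase, changed by −5.35 into rest (adjusted p = 7.1e-05), TK1, a thymidine kinase, by −4.58 (adjusted p = 4.7e-04) and GINS2 of the replicative helicase by −4.16 (adjusted p = 1.9e-04). Between the growth phases POLA2 of the primase complex (−1.45, adjusted p = 0.0014), GINS1 (−1.44, adjusted p = 0.0019) and the ligase LIG1 (−1.28, adjusted p = 0.017) led.

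DREAM is a complex that represses cell cycle genes in resting cells. In the list of 30 tested G1 and DREAM genes 16 fell into rest and 2 rose (all genes, 23.1% lower and 24.7% higher). CCNE2, a cyclin of the G1 to S transition (−3.13, adjusted p = 1.3e-04), CDK2, the kinase it activates (−2.87, adjusted p = 2.6e-05), and E2F7, a repressor among the E2F factors (−2.71, adjusted p = 0.0018), fell most among genes without a value of 0. The CDK inhibitor CDKN1B, known as p27 and high in quiescent cells, held 49.9 and 44.9 TPM, then 68.6 and 69.3 TPM, then 129.3 and 103 TPM. It rose by 0.73 into rest (standard error 0.135, adjusted p = 0.0058) and passed in all 16 alternatives (highest adjusted p = 0.045). Its rise of 0.53 between the growth phases (adjusted p = 0.028) was lost without early growth replicate 2 (0.088), without late growth replicate 1 or 2 (both 0.13) and without the filter on low values (0.11). CDKN2C, an inhibitor of the kinases that pair with cyclin D, was 0.48 higher at rest than in late growth (adjusted p = 0.037), but not without either resting library (0.13 and 0.12) or either late growth library (0.18 and 0.055). RBL2, the pocket protein of DREAM, was at 20.1 and 18.6 TPM in late growth and 24.4 and 27.5 TPM at rest (adjusted p = 0.18).

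At the first step 5 of 30 genes of the G1 and DREAM list rose and 6 fell, where 5.24% of all genes rose and 28.4% fell. With either median-of-ratios scaling or quantile normalization 7 of the list rose and 1 fell. Of all 13063 genes, 1728 rose and 1968 fell with the former, and 1611 rose and 1775 fell with the latter. CCND1, cyclin D1, went from 64.0 and 52.5 TPM to 84.5 and 98.7 TPM (0.65, adjusted p = 0.025), and then at 31.8 and 38.3 TPM at rest. CDKN1A, or p21, rose from 9.74 and 7.79 TPM to 15.4 and 14.2 TPM (0.70, adjusted p = 0.041), and CDKN2B from 1.37 and 0.863 TPM to 4.503 and 4.02 TPM (1.32, adjusted p = 0.040). These 3 calls were lost without early growth replicate 2 or either late growth library (adjusted p from 0.074 to 0.21) and without the filter on low values (CCND1 0.11, CDKN1A 0.075, CDKN2B 0.096). That of CDKN1A was also lost without either resting library (0.078 and 0.080) and in the fit to the growth libraries alone (0.085), and that of CDKN2B with a pseudocount of 0.1 or 0.5 (0.23 and 0.070). RBL1 (−1.09, adjusted p = 0.025), CDK2 (−0.95, adjusted p = 0.0036) and CCND2 (−0.90, adjusted p = 0.033) had the largest falls among called genes without a value of 0.

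**Figure D5:**
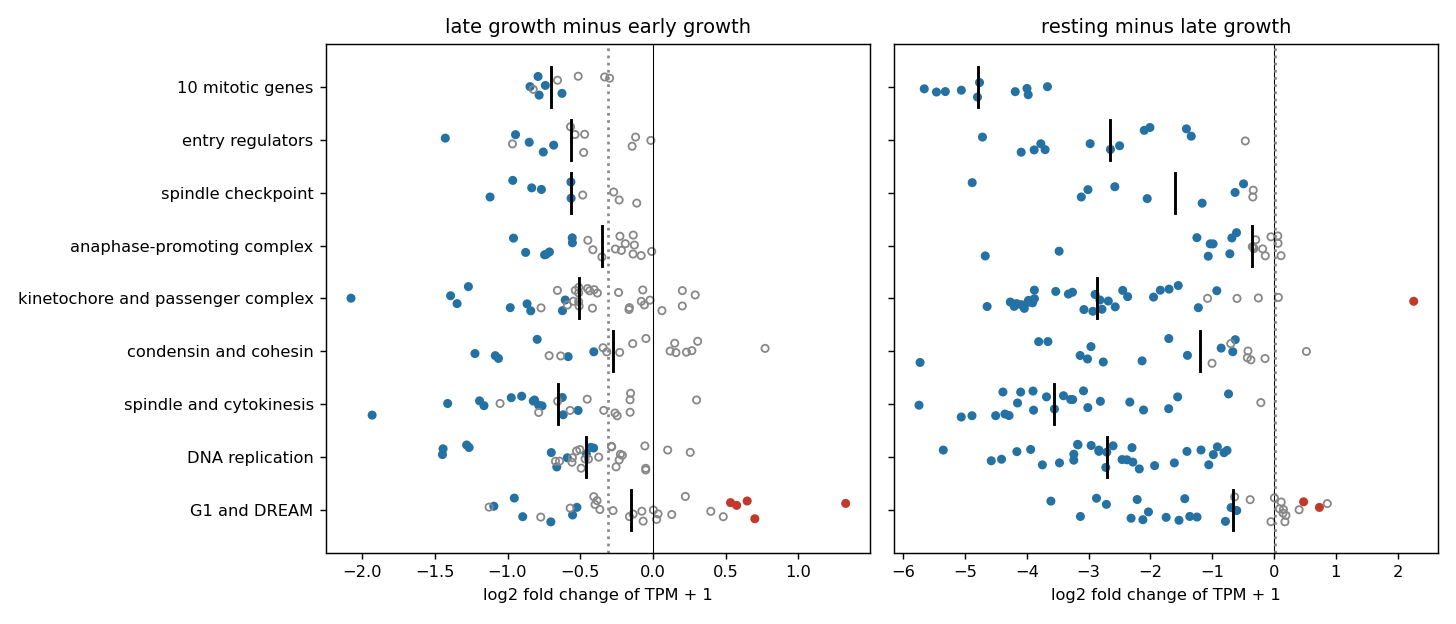
Log2 fold change of TPM + 1 (horizontal axis) of each tested gene of the 10 mitotic genes and of 8 lists (vertical axis) from early to late growth (left) and from late growth to resting (right). Filled points passed an adjusted p of 0.05 (blue lower, red higher), open points did not, black bars are list medians and the dotted line is the median of all tested genes; on the right the 10 genes lie between −5.66 and −3.67, and the lone red point among the kinetochore genes is SGO2.

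The genes whose pattern over the 6 libraries was most like that of the 10 were CCNE2, BARX2, DLGAP5, KPNA2, BUB1B, NPM3, NMRK2 and TKT. Likeness was the Pearson correlation with the mean of the 10 standardized profiles, among 9487 genes with a symbol, a mean above 5 TPM and no value of 0, and it ran from 0.99901 to 0.99953. The libraries fall into 3 separate phases, and the values are a description. KPNA2, an importin, held 260.0 and 258 TPM, then 169 and 176 TPM, then 5.08 and 5.23 TPM. BARX2, a homeobox factor, was far more abundant, at 2846 and 2829 TPM, 2100.2 and 2175 TPM, and then 119 and 107 TPM. CCNE2, BUB1B and DLGAP5, a spindle protein, belong to the lists above. TKT, the transketolase of the pentose phosphate pathway, still held 102 and 93.4 TPM at rest.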

How the data were processed

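RNA from the papilla ectoderm was made into TruSeq libraries, and single reads of 50 cycles were sequenced. The authors ran StringTie with its default settings against GRCg6a and deposited 1 column of TPM per library, which was used unchanged. No aligner is named in the sources used here. The sample titles name the phase and the replicate number, and no batch. TPM sum to 989472 to 998451 per library. Read totals were not used here. The error of each gene was pooled over the 3 phases, with 2 libraries in each, and limma moderated it with the values of other genes.

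Values were taken as log2(TPM + 1). Genes with a mean above 1 TPM were fitted in limma 3.58.1 (R 4.3.3) as 1 cell-means model of the 3 phases with a variance trend and Benjamini-Hochberg adjustment over all tested genes. The fit was run on simulated data with independent noise and changes in few genes, all in late growth. Those settings differ from these data, so that run does not measure the error rate of the calls given here. The study tested counts with another model, which is not used here. The members, the 8 pathway lists, the marker lists and the tests were chosen with earlier results of these data known, so no p value of a list is given. Named genes are the 10 members, up to 3 called genes per list and comparison with the largest changes and no value of 0, up to 3 genes of the lists called higher per comparison, and the 8 genes most alike. CKS2, WEE1, BUB3, MAD1L1, FZR1, FBXO5, RAD21, STAG2, RACGAP1, TUBG1, RBL2, PCNA and RRM1 were chosen after their values were seen. Symbols were used as they stand, except HBBR, which the gene table gives for HBG1. Of the 10 members, 9 matched that table by symbol or synonym and AURKA did not. Alternatives were pseudocounts of 0.1 and 0.5, no filter, a mean above 5 TPM, removal of erythroid and muscle markers before rescaling, scaling by median of ratios, quantile normalization, only the compared phases, the replicate number as a block, robust moderation, stricter thresholds and leaving out each library. Whether replicate numbers pair the libraries is not said in the sources used here, and the correlations given below cannot settle it.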

Additional observations from a re-analysis of the deposited data

How the results depend on the processing

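From late growth to resting and from early growth to resting, all 10 mitotic genes stayed lower under all alternatives, and none of the 160 values per comparison lost its call. Between the growth phases the count of lower genes was 5 with TPM as deposited, 1 with median-of-ratios scaling, 2 with quantile normalization, 9 with only the libraries of the compared phases, 0 with the stricter thresholds, and from 1 to 8 when a library was left out. The lowest counts came without late growth replicate 1 (1) or 2 (2), the highest without either resting library (8). CCNB2 kept its call in 16 of 16 alternatives. Of all tested genes, 28.4% were lower between the growth phases with TPM as deposited. This share was 15.1% with median-of-ratios scaling, 13.6% with quantile normalization, 22.3% with only the compared phases and 3.97% with the stricter thresholds. Without resting replicate 1 or 2, where both growth phases kept 2 libraries, it was 22.2% or 22.3%. Without either late growth library, the counts of 1 and 2 were near the share of all genes. With median-of-ratios scaling MKI67 changed to 0.041 and CDC20 to 0.0077. Both were uncalled before and after. Of the 160 single-gene values at this step, 134 kept direction and call, 14 lost the call, 10 gained it and 2 changed sign; apart from what the settings leave out by construction, the cause was not tested. Over all tested genes at this step, 684 rose and 3710 fell in TPM, 1728 and 1968 with median-of-ratios scaling, and 1611 and 1775 with quantile normalization. From early growth to resting these counts were 2063 and 4437, 3135 and 2973, and 3026 and 3395. From late growth to resting they were 3228 and 3013, and 3717 and 2487 with TPM rescaled without erythroid and muscle markers.

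Libraries with the same replicate number did not deviate together (correlations of −0.029, 0.015 and 0.0083 over genes). With the replicate number as a block, 5 of the 10 genes were lower between the growth phases and 10 at each of the other comparisons, as without it. Of the 121 genes of the wider mitotic lists, 29 in place of 46 were lower between the growth phases with this block, near the 24.1% of all tested genes that were lower there. With the block CDKN1A (adjusted p = 0.078) and CDKN2B (0.072) were not called between the growth phases, nor CDKN2C (0.064) into rest.

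Depth is unknown, so values under 1 TPM at rest cannot be told from 0 with a stated precision. The log2 fold changes of CCNA2 and CCNB3 into rest ran from −7.50 to −4.91 and from −7.47 to −4.59 over the alternatives, since each has 1 resting library at 0.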

Other observations

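PCNA and RRM1, chosen after their values were seen, are genes of DNA synthesis. PCNA, the sliding clamp of DNA polymerases, held 549 and 485 TPM, then 492 and 499.9 TPM, then 129.8 and 128.7 TPM at rest. It kept 26.0% of its late growth level, where the 8 mitotic genes without a value of 0 kept 1.05 to 6.90%. RRM1, the large subunit of ribonucleotide reductase, kept 50.2%, while RRM2, the small subunit, kept 2.09%. PCNA fell by 1.93 (adjusted p = 1.8e-05) and RRM1 by 0.98 (adjusted p = 3.6e-04) into rest by limma. Neither the difference between RRM1 and RRM2 nor that between PCNA and the mitotic genes was tested.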
